A study of Mus musculus with 12 samples.

Results

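The liver of mice that carried a young 4T1 mammary tumor was compared with the liver of mice that carried none, gene by gene. The comparison uses 6 of the 12 arrays of the series: the 3 liver arrays whose titles call the tissue pre-metastatic and the 3 liver arrays titled as controls. The other 6 arrays hold lung and serve here only to test whether a liver difference was also seen there. All mice were female NCR nude mice, athymic animals with few mature T cells, so both liver groups share that deficit. The tumor-bearing group had received 4T1 cells, a mouse mammary carcinoma line, at the orthotopic site, and the control group had received phosphate-buffered saline there. Liver was taken on day 7 in both groups. Total RNA of the liver sample was hybridised to Affymetrix mouse arrays, 1 array per sample, and the deposited values are log2 GCRMA levels per probe set. The design text counts 3 mice per group. Each array is spoken of here as 1 mouse, though the labels do not say whether RNA was pooled or repeated. The number of arrays limits the precision, and in bulk tissue fewer cells of a type and less RNA per cell cannot be told apart.

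The liver makes most plasma proteins, bile acids and drug-clearing enzymes, and it reads distant inflammation through circulating cytokines. Interleukin-6 acts on hepatocytes through the receptor subunit gp130, the kinases of the JAK family and the transcription factor STAT3, which drives acute phase genes and its own inhibitor Socs3. Interleukin-1 acts through its receptor and NF-kappa-B and is held in check by the receptor antagonist Il1rn. Activin, a dimer of Inhba products, signals through SMAD proteins, and Smad7 inhibits that path. In the bile acid circuit the nuclear receptor FXR induces Nr0b2 (SHP), which represses Cyp7a1, the rate-limiting enzyme of bile acid synthesis.

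The arrays carried the transcripts of liver. Alb, which codes for albumin, read 16.05 to 16.20 (log2) on all 6 arrays, and the 21 hepatocyte genes tested had a median change of 0.02 with 0 past the threshold. Sftpc, a lung surfactant gene, read 2.24 to 2.63 on 5 arrays and 6.54 in control replicate 2. Arrays of tumor-bearing mice correlated with each other at 0.9932 to 0.9950, control arrays at 0.9958 to 0.9964, and arrays of opposite groups at 0.9898 to 0.9941. Tumor replicate 1 correlated least with the controls, at 0.9898 to 0.9913. Of the 16 epithelial markers of the tumor line with a probe set, 10 lay at or under 4 on all 6 arrays, and the 5 tested included Krt8 and Krt18, which hepatocytes also express. Over all 16 the mean level was 4.68 to 5.01 in tumor-bearing and 4.68 to 4.81 in control mice, and 0 of the 5 passed.

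Of 7712 genes tested, 144 (1.87%) differed between the groups at a limma adjusted p under 0.05. Of these, 49 (0.635%) were higher and 95 (1.23%) lower in tumor-bearing mice. The rises were the larger changes, with a median of 1.16 (log2) against -0.74 for the falls. A difference of 2-fold or more was reached by 28 of the 49 higher and 23 of the 95 lower genes. Over all genes the liver leaned downward, with a median change of -0.07 and a higher mean in tumor-bearing mice for 3051 genes (39.6%). That lean depends on the scaling, since the median over all genes was -0.01 after a further quantile normalization and 0.05 with each array centred on its median. The share of higher genes among those past the threshold was 34.0% as deposited, 52.9% after quantile normalization (46 higher, 41 lower) and 62.0% after centring (119 higher, 73 lower). All 3 scalings shared 42 of the 49 higher and 39 of the 95 lower genes. Of the named genes that passed as deposited, Car1, Dnajb2, Eepd1, Id2, Nr0b2, Rgs1, Taf1b and Timp2 missed the threshold after quantile normalization (adjusted p 0.0504 to 0.0536).

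The calls lie close to the threshold. No adjusted p was under 0.0323, and leaving out any 1 of the 6 arrays left 0 genes past it, except that Il1b passed without tumor replicate 1 (adjusted p = 0.014). Of the 144 genes, 137 could be tested in all 6 such fits, and 137 had an unadjusted p under 0.05 in each. The 3 tumor and 3 control arrays did not overlap for any of the 144 genes, against 2556 of all genes tested (33.1%). For genes picked by small p both results are largely fixed in advance, so they add no support to the calls. At an unadjusted p under 0.05 stood 1997 genes (25.9%), of which 630 (8.17%) were higher and 1367 (17.7%) lower. For 43 of the 144 another probe set was tested, and in 35 all of them moved the same way.

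**Figure D1:**
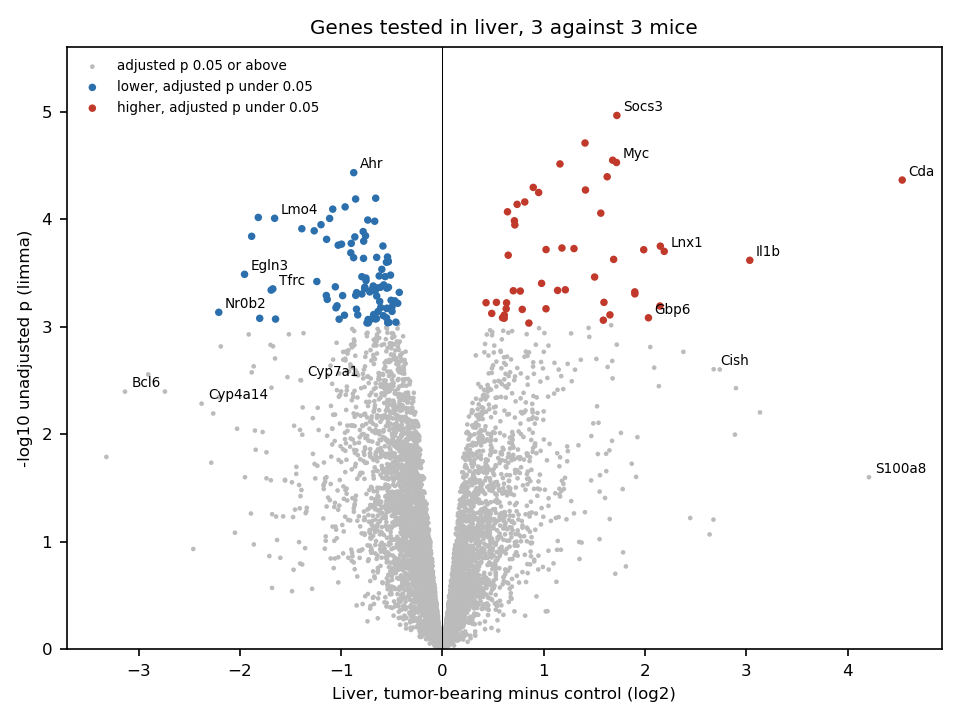
Change of each of the 7712 genes tested in liver (x axis, tumor-bearing minus control, log2) against the negative log10 of its unadjusted limma p (y axis), with 3 mice in each group. Red points are the 49 genes higher and blue points the 95 genes lower at an adjusted p under 0.05, and large but variable changes such as S100a8 (4.21) and Bcl6 (-3.13) lie in grey.

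The promoters of 4 genes past the threshold are shown because they hold a sequence that a factor of these pathways is known to bind, taken by size of change. Each is the 250 bases before the gene start in the RefSeq table (GRCm38.p6), read 5′ to 3′ along the gene, with the motif in capitals.
Nr0b2 (chr4:133553126-133553375, plus strand, an E-box and then a STAT site): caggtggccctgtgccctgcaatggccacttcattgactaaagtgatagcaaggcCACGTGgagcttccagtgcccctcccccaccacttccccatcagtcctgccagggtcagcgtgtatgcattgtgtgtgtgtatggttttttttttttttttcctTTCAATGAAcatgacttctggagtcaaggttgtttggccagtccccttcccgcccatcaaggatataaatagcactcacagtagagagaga
Lnx1 (chr5:74702904-74703153, minus strand, an E-box): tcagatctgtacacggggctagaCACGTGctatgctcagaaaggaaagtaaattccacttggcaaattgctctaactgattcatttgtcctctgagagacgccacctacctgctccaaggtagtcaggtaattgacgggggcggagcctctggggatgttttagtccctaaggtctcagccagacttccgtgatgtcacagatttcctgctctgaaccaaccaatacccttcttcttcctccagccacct
Rce1 (chr19:4625646-4625895, minus strand, an E-box): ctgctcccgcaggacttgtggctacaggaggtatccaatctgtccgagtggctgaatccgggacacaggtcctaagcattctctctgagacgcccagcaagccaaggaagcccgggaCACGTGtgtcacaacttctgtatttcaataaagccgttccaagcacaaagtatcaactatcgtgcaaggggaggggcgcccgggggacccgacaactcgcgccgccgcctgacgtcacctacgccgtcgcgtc
Socs3 (chr11:117969367-117969616, minus strand, a STAT site): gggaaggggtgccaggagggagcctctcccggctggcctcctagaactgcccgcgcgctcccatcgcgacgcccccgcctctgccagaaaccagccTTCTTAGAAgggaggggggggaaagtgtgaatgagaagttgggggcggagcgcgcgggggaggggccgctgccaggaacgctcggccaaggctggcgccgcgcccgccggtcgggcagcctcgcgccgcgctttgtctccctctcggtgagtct

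The STAT site, searched as TTCNNNGAA on both strands, starts 154 bases before the start of Socs3, a direct target of STAT3, and 91 bases before that of Nr0b2. It was present in the window of 7 of the 39 higher genes with a promoter in the table (17.9%), 6 of 76 lower genes (7.89%) and 457 of 6318 genes tested (7.23%). The E-box CACGTG, a site of MYC and clock factors among others, was present in 2 higher genes (5.13%), 8 lower genes (10.5%) and 650 genes tested (10.3%). The interferon-stimulated response element, searched as GAAA repeated after 2 bases, was present in 2 higher genes (5.13%), 1 lower gene (1.32%) and 210 genes tested (3.32%). The heat shock element, searched as GAA, TTC and GAA with 2 bases between neighbours, was present in 0 genes past the threshold and in 31 genes tested (0.491%). Among all 32851 promoters of the table the shares were 7.02% for the STAT site, 6.02% for the E-box, 2.98% for the interferon element and 0.466% for the heat shock element. Such matches describe the letters of this window and do not show binding.

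Several cytokine signalling genes rose. In the IL-6 receptor and STAT3 list, 3 of 23 tested genes rose (Socs3, Il6st and Myc), against 0.635% of all genes, and 0 fell, against 1.23%. This list and those below were chosen with earlier results of these data known, so such shares are descriptive and are not a test. The list's median change was 0.14, and 0.09 without control replicate 1. Socs3, the feedback inhibitor of this receptor, read 11.59, 11.19 and 11.47 (log2) in tumor-bearing mice and 9.62, 9.71 and 9.75 in controls. The groups are far apart and both are tight. Socs3 rose 3.30-fold (change 1.72, SE 0.12, limma adjusted p = 0.0323), and its 2 other probe sets changed by 1.80 and 3.17. Il6st, which codes for gp130, the signalling subunit, read 11.20, 11.37 and 11.29 against 10.57, 10.79 and 10.72. It rose by a smaller step, 1.51-fold (adjusted p = 0.0484), without overlap. Stat3 itself read 11.87 to 12.16 against 11.28 to 11.62 and did not pass (change 0.50, adjusted p = 0.0971).

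Cish and Bcl6 had the widest changes of the same list, and neither passed the threshold. Cish, a SOCS family gene induced by growth hormone and STAT5, read 8.53, 8.91 and 9.53 in tumor-bearing mice against 6.59, 7.08 and 5.27 in controls (change 2.68, adjusted p = 0.0604). Socs2, another growth hormone target, read 10.61 to 10.98 against 9.21 to 10.01 (change 1.15, adjusted p = 0.0604). Bcl6, a transcriptional repressor that growth hormone lowers in liver, read 9.38, 7.58 and 6.69 against 10.86, 10.94 and 11.25 (change -3.13, adjusted p = 0.0694). None of the 3 genes overlapped between groups (33.1% of all genes did not), yet the tumor-bearing arrays ranged from 6.69 to 9.38 for Bcl6. Cish and Socs2 were named for their small p in the growth hormone and IGF list, and Bcl6 for its small p among glucocorticoid targets. Igf2r, named in the former list by the same rule, changed by -0.58 (limma adjusted p = 0.0642), and by 0.05 on its other probe set. Igf1, the main circulating product of the growth hormone axis, read 13.51 to 13.70 against 13.58 to 13.78 (adjusted p = 0.73). In the growth hormone and IGF list 0 of 24 genes passed, with a median change of 0.11 (0.06 without tumor replicate 3).

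In the IL-1 family, 2 of 11 tested genes rose (0.635% of all genes) and 0 fell. The list median of 0.26 dropped to 0.09 and 0.16 when tumor replicate 3 or tumor replicate 2 was left out. Il1b, the cytokine itself, read 8.84, 7.59 and 7.49 against 4.96, 4.85 and 5.01, and rose 8.19-fold (change 3.03, SE 0.37, limma adjusted p = 0.0348). Tumor replicate 1 was the highest, and without it the change was 2.60. Il1rn, the receptor antagonist, read 6.84, 7.37 and 6.97 against 4.68, 5.43 and 5.10 and rose 3.96-fold (adjusted p = 0.0338). Agonist and antagonist thus both rose, and in each the groups stayed apart. Csf2rb, the shared beta subunit of the receptors for GM-CSF, IL-3 and IL-5, read 8.52, 8.34 and 8.43 against 6.68, 7.16 and 6.37 and rose 3.23-fold (adjusted p = 0.0348).

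The classic acute phase products did not pass the threshold. Saa1, a serum amyloid A gene, read 14.97, 14.81 and 15.04 in tumor-bearing mice against 13.87, 15.74 and 15.39 in controls (adjusted p = 0.951). Saa2 read 14.51, 14.14 and 14.57 against 13.26, 15.53 and 14.63 (adjusted p = 0.954). Lcn2, the iron-siderophore binding lipocalin, read 14.60 to 14.69 against 13.94 to 15.08 (adjusted p = 0.833). In all 3 the tumor-bearing values lay within the range of the controls, and control replicate 1 was the lowest of the 6 arrays. Saa3 read 9.25 to 9.39 against 8.91 to 9.92 (adjusted p = 0.608), and Hamp, the iron hormone hepcidin, read 14.89 to 14.98 against 14.49 to 14.96 (adjusted p = 0.271). Of 31 acute phase genes tested, Il1rn was the 1 that rose (0.635% of all genes) and 0 fell. The list's median change was 0.11 (0.05 without control replicate 1 and 0.17 without control replicate 2). Complement leaned upward with 19 of 24 genes higher (22 after median centring) but 0 past the threshold, a median of 0.22, and the smallest p in C1ra (12.95 ± 0.16 against 12.43 ± 0.13, SD, n = 3 each, adjusted p = 0.0721). Coagulation genes had a median of 0.08 with 0 of 26 past the threshold.

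Interferon genes leaned upward, with 1 tumor-bearing array well above the others. Gbp6, an interferon-gamma induced guanylate-binding protein gene, read 9.70, 10.18 and 10.58 against 8.64, 7.97 and 7.75, and rose 4.09-fold (limma adjusted p = 0.0484). It was the 1 gene past the threshold among 21 tested in the interferon gamma list, against 0.635% higher over all genes. In that list 20 had higher means under all 3 scalings. The list's median change was 0.73, and it was 0.46 without tumor replicate 3, 0.48 without control replicate 3 and 0.61 to 0.98 without any other array. By array the list median, as deviation from each gene's mean, was 0.10, 0.25 and 0.81 in tumor-bearing mice and 0.05, -0.35 and -0.58 in controls, so tumor replicate 1 and control replicate 1 were nearly level. The antigen peptide transporter gene Tap1 read 6.97, 7.37 and 8.27 against 6.65, 5.97 and 5.39 (adjusted p = 0.112). In the type I interferon list 0 of 24 genes passed, 21 had higher means and the median was 0.35, with 0.18 when tumor replicate 3, 0.22 when control replicate 2 or 3 and 0.53 when control replicate 1 was left out. Dhx58, an RNA sensor regulator, had the smallest p there (5.47 ± 0.43 against 4.23 ± 0.18, SD, n = 3 each, adjusted p = 0.0591).

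Markers of immune cells gave little above the filter. Of 28 neutrophil genes with a probe set, 18 lay at or under 4 on all 6 arrays, among them the granule gene Ltf (2.06 to 2.19) and the surface gene Cd177 (2.04 on every array). S100a8, a calprotectin subunit of neutrophils and monocytes, read 10.42, 8.81 and 9.92 against 2.56, 8.02 and 5.95 (change 4.21, adjusted p = 0.138). The control values were far apart, with control replicate 1 near the lowest value of the arrays and control replicate 2 close to the tumor-bearing mice. S100a9, the other subunit, read 9.97, 9.19 and 9.38 against 5.07, 7.97 and 6.09 (adjusted p = 0.0817), and Prtn3, the granule protease proteinase 3, read 10.98, 11.42 and 11.18 against 7.87, 9.50 and 9.08 (adjusted p = 0.0567). All 9 neutrophil genes tested had higher means (39.6% of all genes), 4 had groups that did not overlap (10.4% of all genes lay higher without overlap) and 0 passed. The mean level over all 28 was 4.70 to 4.81 in tumor-bearing and 4.02 to 4.47 in control mice. What these cells contribute to the Il1b rise was not tested.

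Resident macrophage genes leaned upward with none past the threshold. Of 21 Kupffer cell and macrophage genes tested, 17 had higher means (39.6% of all genes) and 0 passed, with a median change of 0.30 (0.42 after median centring, 0.20 without tumor replicate 3). The list's mean level was 9.17 to 9.47 in tumor-bearing and 8.99 to 9.11 in control mice. Slc40a1, the iron exporter ferroportin that these cells carry, had the smallest p (13.27, 13.38 and 13.31 against 13.01, 12.82 and 12.69, adjusted p = 0.0687). Of the T and NK cell genes 15 of 19 lay at or under 4 on all arrays, 2 were tested and 0 passed. The B cell and plasma cell list had 4 genes tested, 0 past the threshold, and Jchain, which joins secreted antibodies, at 8.45 ± 0.13 against 7.64 ± 0.47 (SD, n = 3 each, adjusted p = 0.115).

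**Figure D2:**
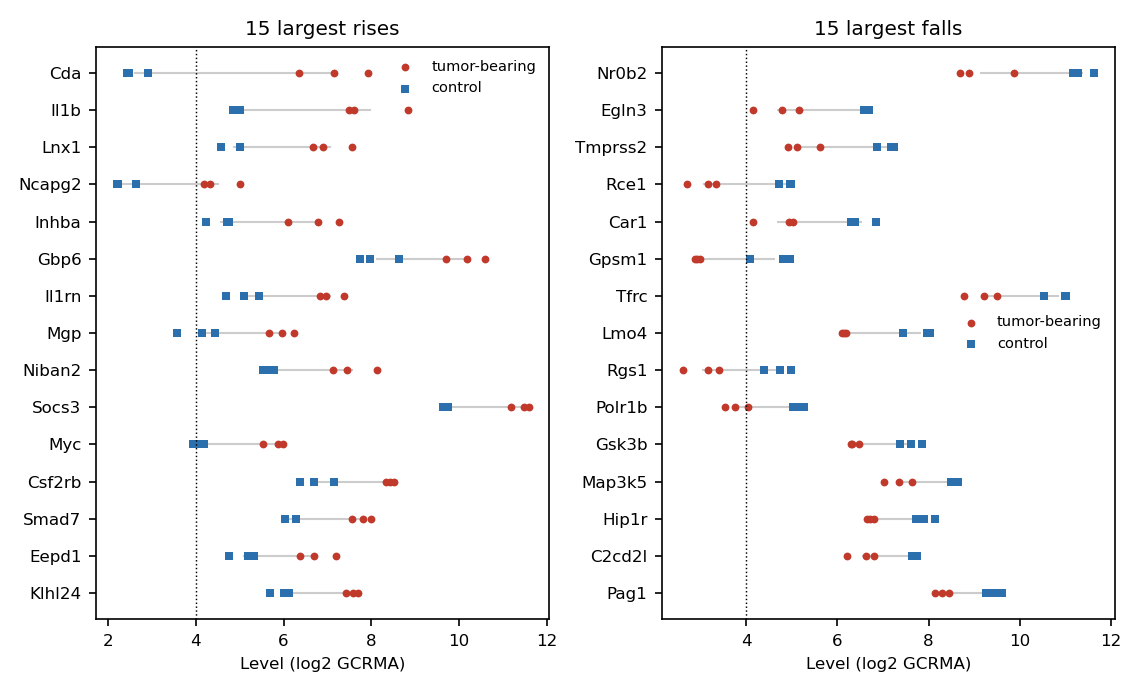
Level on each liver array (x axis, log2 GCRMA) of the 15 genes with the largest rises and the 15 with the largest falls past the threshold, with red circles for the 3 tumor-bearing and blue squares for the 3 control mice and a grey line joining the group means. The groups do not overlap in any row because genes were picked by that rule. In Cda, Ncapg2, Rce1, Gpsm1 and Rgs1 all arrays of 1 group lie at or under the filter value of 4 (dotted).

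Inhba, Smad7 and Id2 of the activin, BMP and TGF-beta list rose. Inhba, the activin subunit, read 6.10, 7.25 and 6.78 in tumor-bearing mice against 4.24, 4.71 and 4.75 in controls, and rose 4.43-fold (limma adjusted p = 0.0461). Smad7, the inhibitory SMAD, read 7.99, 7.57 and 7.82 against 6.02, 6.03 and 6.28, and rose 3.21-fold (SE 0.14 on the log2 scale, adjusted p = 0.0323). Id2, a helix-loop-helix inhibitor that BMP signals induce, read 13.65, 12.94 and 12.98 against 11.92, 11.31 and 11.58 and rose 3.01-fold (adjusted p = 0.0488). The groups were separate in each, as in all 144 genes past the threshold. Whether these genes act in 1 path was not tested. They were the 3 genes past the threshold, all higher, among 26 tested in the activin, BMP and TGF-beta list, against 0.635% higher over all genes. The list median of 0.21 was 0.07 without tumor replicate 3 and 0.10 without control replicate 2. Acvr2a, an activin receptor chosen here after its value was seen, changed by -0.76 (adjusted p = 0.0826).

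Among growth and cell division genes, Myc and Ncapg2 passed the threshold as deposited. Myc, the growth-promoting transcription factor, read 5.97, 5.53 and 5.87 against 3.93, 4.10 and 4.19 and rose 3.29-fold (adjusted p = 0.0323). Its controls lay close to the filter value of 4. Myc was the 1 of 23 immediate early genes past the threshold, against 0.635% higher over all genes. In that list 18 genes had higher means, the median was 0.44 (0.22 without control replicate 3), and the array medians were 0.27, 0.24 and 0.27 in tumor-bearing mice against -0.26, 0.00 and -0.26 in controls. Ncapg2, a condensin subunit needed for chromosome packing, read 4.32, 4.18 and 5.0 against 2.63, 2.20 and 2.22, and passed on these values (change 2.15, adjusted p = 0.0338). All controls lie under the filter value of 4, and with them set to 4 the gene was 1.41-fold higher and did not pass (adjusted p = 0.215). Ncapg2 met the filter only through the tumor-bearing arrays. It was the 1 call, as deposited, among 17 of 38 mitosis and DNA synthesis genes that could be tested. That count adds no support beside the 0.635% higher over all genes. Mki67, the standard proliferation marker, lay at 3.56 to 4.63 against 3.56 to 3.78 and was not tested.

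The helicase genes that license DNA replication had the highest median of the 51 lists, 0.78 over 13 genes, with 0 past the threshold. Mcm3 read 8.09, 8.26 and 9.18 against 7.13, 6.65 and 6.85 (adjusted p = 0.0604), Mcm6 9.65, 8.90 and 10.41 against 8.27, 7.24 and 8.16 (adjusted p = 0.0971), and Mcm10 10.64, 10.78 and 10.65 against 10.25, 10.10 and 10.25 (adjusted p = 0.0535). Tumor replicate 3 was the highest array for Mcm3 and Mcm6, and its list median of 0.91 stood above the 0.01 and 0.20 of the other tumor-bearing arrays. Without tumor replicate 3 the list median was 0.51, and without any other array it was 0.71 to 0.87.

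Ribosome production genes held 1 call in each direction. Polr1b, the second largest subunit of RNA polymerase I, read 4.04, 3.75 and 3.54 against 5.02 to 5.28 and fell (adjusted p = 0.0336), by 2.22-fold with values under 4 set to 4 (adjusted p = 0.0293). Setting values to 4 leaves the tumor-bearing arrays almost no spread, so the 0.0293 adds no support. Taf1b, a subunit of the selectivity factor for the same polymerase, read 7.59, 7.25 and 7.16 against 6.44, 6.30 and 6.32 and rose 1.97-fold (adjusted p = 0.0419). The 2 genes past the threshold in the list of 34 (1.87% of all genes passed) thus moved in opposite directions. Of the 34, 28 had lower means (25 after median centring), 14 of them without overlap (41.2% against 22.7% over all genes), and the median change was -0.34, which was -0.13 without tumor replicate 1. By array the list median was -0.42, -0.03 and 0.05 in tumor-bearing mice against 0.18, 0.09 and 0.12 in controls, tumor replicate 1 standing lowest. The same array had the lowest median over all genes tested, 8.88 against 9.0 to 9.09 on the other 5, and its part in the list's shift was not tested. Cytosolic ribosomal protein genes had 0 of 27 past the threshold and a median of -0.06.

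Of the 51 lists, protein folding genes had the lowest median, -0.36 over 41 heat shock proteins and J-domain co-chaperones. Of these, 36 had lower means (33 after median centring), 22 of them without overlap (53.7% against 22.7% over all genes), and 19 at an unadjusted p under 0.05 (46.3% against 17.7%). Dnajb2, a neuronal-type J-domain protein, read 9.12, 9.35 and 9.24 against 10.25, 10.10 and 9.90 and fell 1.80-fold (limma adjusted p = 0.0419). Dnajc12, a J-domain partner of the aromatic amino acid hydroxylases, read 11.11, 11.26 and 11.42 against 9.42, 9.74 and 9.94 and rose 2.96-fold (adjusted p = 0.0323). These were the 2 of 41 members past the threshold, against 1.87% over all genes. Several stress-inducible members, named after their values were seen, had wide changes that did not pass: Hspb1 -2.90 (adjusted p = 0.0616), Dnaja4 -1.95 (adjusted p = 0.138), Hsph1 -1.69 (adjusted p = 0.142) and Chordc1 -1.38 (adjusted p = 0.0794). The array medians were -0.28, -0.14 and -0.01 in tumor-bearing mice and 0.25, 0.15 and 0.19 in controls. The list median in lung was also negative, -0.36.

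The unfolded protein and integrated stress response list had 1 of 37 genes past the threshold, against 1.87% over all genes. Its median was -0.10, which became 0.02 after median centring. Chac1, a glutathione-degrading enzyme induced by the ATF4 arm, read 8.49, 8.71 and 8.46 against 7.34, 7.57 and 7.68 and rose 2.03-fold (adjusted p = 0.0338). Xbp1, the transcription factor of the IRE1 arm, read 13.64 to 13.77 against 13.13 to 13.32 (adjusted p = 0.0529). Grpel2, a nucleotide exchange factor of the mitochondrial HSP70, read 10.58, 10.60 and 10.68 against 9.81, 9.61 and 9.75 and rose 1.86-fold (adjusted p = 0.0323).

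**Figure D3:**
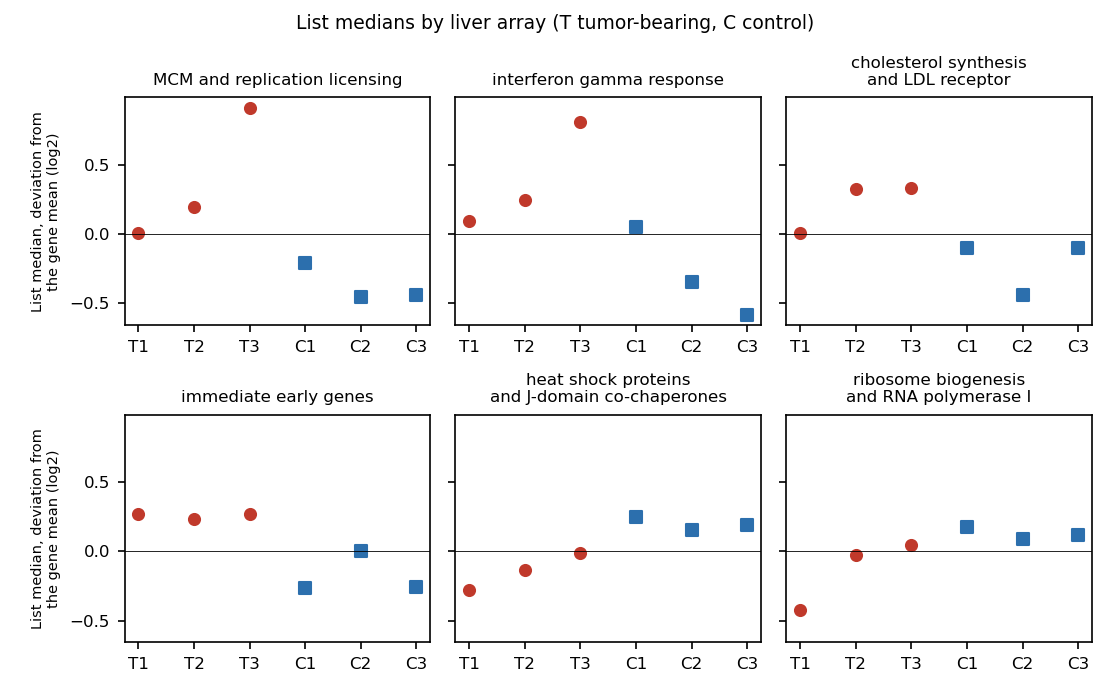
Median over the genes of a list, each taken as deviation from its own mean over the 6 liver arrays (y axis, log2), for each array (x axis, T tumor-bearing in red, C control in blue). The 6 lists are a selection from the 51. The groups are separate in all 6, by the narrowest gaps in the interferon and ribosome lists. Over all genes tested they were separate too, at -0.058, -0.002 and -0.023 in tumor-bearing mice against 0.050, 0.032 and 0.025. Tumor replicate 3 stands highest in the replication and interferon lists and tumor replicate 1 lowest in the ribosome list.

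Of the bile acid genes tested, the feedback regulator Nr0b2 fell past the threshold. Nr0b2, the repressor SHP whose promoter is printed above, read 9.88, 8.89 and 8.70 in tumor-bearing mice against 11.27, 11.18 and 11.64 in controls. All tumor-bearing values lay below the lowest control. It fell 4.62-fold (SE 0.34 on the log2 scale, limma adjusted p = 0.0478, and 0.0511 after a further quantile normalization). Cyp7a1, the gene it represses, read 11.52, 12.46 and 12.53 against 13.44, 13.68 and 13.57, was also lower in every tumor-bearing mouse and did not pass (change -1.40, adjusted p = 0.0642; its other probe set -1.18). Cyp39a1 and Cyp7b1, both oxysterol hydroxylases and both named after their values were seen, changed by -1.69 (adjusted p = 0.0673) and -0.94 (adjusted p = 0.0912). The whole list of 27 genes had a median of -0.07, equal to that of all genes at this rounding, with 1 past the threshold (1.87% of all genes). In it 9 genes had higher and 18 lower means. Without overlap, 5 lay higher and 5 lower (18.5% each, against 10.4% higher and 22.7% lower over all genes).

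Cholesterol synthesis genes lay higher together, although 0 of 21 passed. The first steps were represented by Hmgcs1, the synthase before the statin target, at 14.42, 14.75 and 14.73 against 13.79, 13.45 and 13.98 (adjusted p = 0.0585), and Mvk, mevalonate kinase, at 5.95, 6.15 and 5.80 against 5.21, 4.90 and 4.47 (adjusted p = 0.0587). Sc5d, a late desaturase, read 13.64, 13.64 and 13.66 against 13.09, 12.81 and 13.21 (adjusted p = 0.0587). The groups were separate in all 3, which were named for having the smallest p of the list. Of the 21 genes 17 had higher means (19 under either other scaling), 12 without overlap (57.1% against 10.4% over all genes), and the median change was 0.48.

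Fatty acid, sugar and amino acid metabolism had 0 genes past the threshold in 4 lists, whose medians lay near that of all genes (-0.07). Median changes were -0.15 for fatty acid synthesis (23 genes), -0.11 for fatty acid oxidation (33), -0.13 for gluconeogenesis and glycogen (20) and -0.11 for the urea cycle and amino acid breakdown (29). After median centring they were -0.03, 0.00, -0.01 and 0.01, against 0.05 for all genes. Members with small p were Dgat1, the last enzyme of triglyceride synthesis (8.80 ± 0.14 against 9.34 ± 0.14, adjusted p = 0.0668), Me1, malic enzyme (10.70 ± 0.15 against 11.24 ± 0.15, adjusted p = 0.077), and Prodh, proline dehydrogenase (11.90 ± 0.12 against 12.84 ± 0.30, adjusted p = 0.0571; SD, n = 3 each). Plin2, the lipid droplet coat, read 13.24, 13.32 and 13.43 against 12.82, 12.91 and 13.03 (adjusted p = 0.071). Cyp4a14, a fatty acid hydroxylase controlled by PPAR-alpha, read 3.41, 3.97 and 3.84 against 5.64, 7.34 and 5.37, at least 4.35-fold lower when tumor-bearing mice are set to 4, and did not pass (adjusted p = 0.0844, and 0.0765 as deposited).

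**Figure D4:**
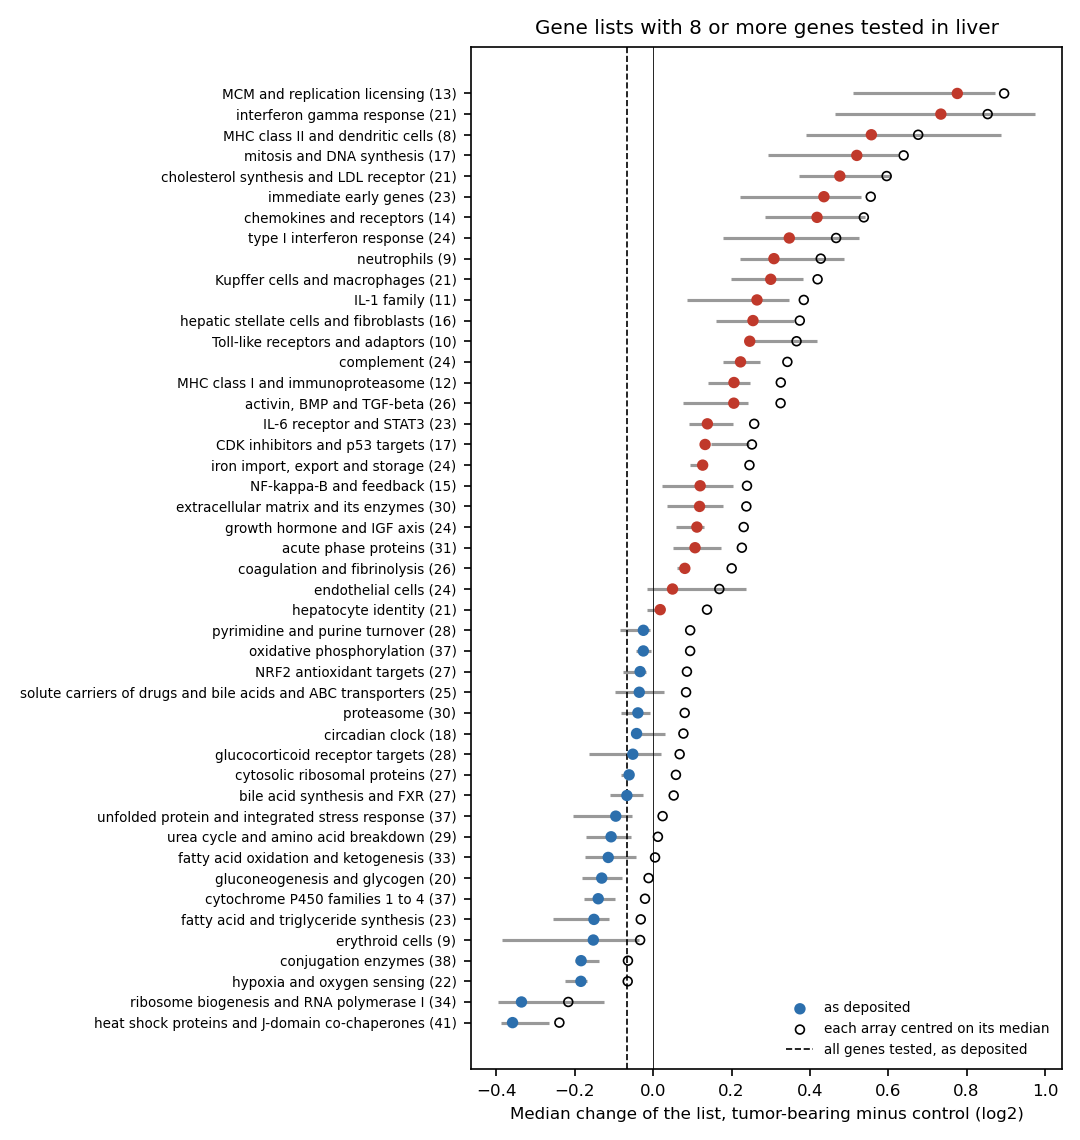
Median log2 change (x axis, tumor-bearing minus control) of each gene list with at least 8 genes tested, as deposited (filled, red above and blue below 0) and with each array centred on its median (open), the number tested standing in brackets. Grey bars span the values with 1 array left out, and the dashed line marks the median of all genes tested, -0.07; replication licensing (0.78) and heat shock genes (-0.36) lie at the ends.

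Drug-handling genes gave 2 calls in 100 genes tested, summed over 3 lists, close to the 1.87% over all genes. Ahr, the receptor for dioxin-like ligands and an inducer of the Cyp1 enzymes, read 10.04, 10.14 and 9.97 against 10.88, 10.98 and 10.92. The arrays were tight in both groups, and Ahr fell 1.84-fold (SE 0.08, limma adjusted p = 0.0323). It was the 1 gene past the threshold among 37 in the cytochrome P450 list, whose median was -0.14 (-0.02 after median centring). Slc22a7, the organic anion transporter OAT2, read 11.61, 11.38 and 11.65 against 10.12, 10.22 and 10.66 and rose 2.32-fold (adjusted p = 0.0419), the 1 call among 25 transporters. Conjugation enzymes had 0 of 38 past the threshold and a median of -0.18, with Nnmt, the nicotinamide methyltransferase, at 12.82 ± 0.22 against 13.73 ± 0.26 (SD, n = 3 each, adjusted p = 0.0604) and Tpmt, thiopurine methyltransferase, at 9.97, 10.18 and 9.83 against 9.36, 9.28 and 9.39 (adjusted p = 0.0529).

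Nucleoside salvage held the largest single rise. Cda, cytidine deaminase, which turns cytidine into uridine, read 7.92, 7.15 and 6.36 in tumor-bearing mice against 2.48, 2.42 and 2.91 in controls. The control values are near the lowest level of the arrays, so the size is a bound: at least 8.82-fold higher with controls set to 4 (limma adjusted p = 0.0313 on those values and 0.0323 as deposited). Setting the controls to 4 removes their spread, so the 0.0313 adds no support. Cda met the filter only through the tumor-bearing arrays. Uck1, uridine-cytidine kinase, read 8.68, 8.66 and 8.63 against 9.36, 9.30 and 9.28 and fell 1.58-fold (adjusted p = 0.0323). These were the 2 calls among 28 pyrimidine and purine genes tested, against 1.87% over all genes. The list median was -0.03.

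Iron and oxygen sensing genes each included a fall. Over all genes 1.87% passed the threshold in either direction and 1.23% fell, the share to set beside the counts here. Tfrc, the transferrin receptor, read 8.79, 9.22 and 9.51 against 10.53 to 11.02 and fell 3.19-fold (adjusted p = 0.0419), and its other probe set changed by -0.99. Smad7 was the other call among 24 iron genes, whose median was 0.13. Car1, carbonic anhydrase 1 of red cells, read 4.94, 5.03 and 4.15 against 6.85, 6.39 and 6.29 and fell 3.49-fold (adjusted p = 0.0484). Tfrc and Car1 were also the 2 calls among 9 erythroid genes tested, and 13 of 22 erythroid markers lay at or under 4 on all arrays. The erythroid list's mean level was 4.51 to 4.75 in tumor-bearing and 4.73 to 4.85 in control mice, and the part of red cell precursors in both falls was not tested. Egln3, a prolyl hydroxylase that HIF induces, read 4.79, 4.16 and 5.15 against 6.57, 6.70 and 6.69 and fell 3.87-fold (adjusted p = 0.0419). It was the 1 call among 22 hypoxia genes, of which 17 had lower means (13 after median centring) with a median of -0.18, and Slc2a1, the glucose transporter GLUT1, read 8.48, 8.46 and 8.10 against 9.0, 9.33 and 9.32 (adjusted p = 0.0545).

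Matrix genes gave 1 call in each direction among 30 tested, against 0.635% higher and 1.23% lower over all genes. Mgp, matrix Gla protein, an inhibitor of calcification and of BMP ligands, read 5.95, 6.24 and 5.66 against 4.15, 4.45 and 3.56 and rose 3.73-fold (limma adjusted p = 0.0422). Timp2, an inhibitor of metalloproteinases, read 6.97, 7.06 and 6.81 against 7.81, 7.59 and 7.70 and fell 1.69-fold on its probe set (adjusted p = 0.0419), whereas its 3 other probe sets changed by -0.72 to 0.91, so no direction is drawn for the gene. Fn1, fibronectin, read 14.36, 14.39 and 14.31 against 14.17, 14.26 and 14.17 (adjusted p = 0.221). Mgp was also the 1 call among 16 stellate cell and fibroblast genes, whose median was 0.25 (0.16 without control replicate 1), and endothelial genes had 0 of 24 past the threshold with a median of 0.05.

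Other large rises lay outside the lists. Lnx1, a ubiquitin ligase of the NUMB protein, read 6.67, 7.56 and 6.91 against 4.58 to 5.0 and rose 4.56-fold (adjusted p = 0.0343). Niban2 read 7.45, 8.13 and 7.12 against 5.53, 5.78 and 5.70 and rose 3.73-fold (adjusted p = 0.0419). Klhl24, a substrate adaptor of cullin ligases, read 7.70, 7.42 and 7.58 against 5.69 to 6.13 and rose 3.09-fold (adjusted p = 0.0323). Eepd1 read 7.19, 6.37 and 6.68 against 4.76 to 5.32 and rose 3.15-fold (adjusted p = 0.0484). The groups were apart in each, by the narrowest margin in Eepd1.

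Other large falls also lay outside the lists. Gsk3b, glycogen synthase kinase 3 beta, read 6.29, 6.46 and 6.31 against 7.86, 7.62 and 7.38 and fell 2.40-fold (limma adjusted p = 0.0336). Map3k5, the stress kinase ASK1, read 7.02, 7.64 and 7.34 against 8.65, 8.50 and 8.58 and fell 2.36-fold (adjusted p = 0.0419). Lmo4, a LIM-domain transcription cofactor, read 6.09 to 6.20 against 8.03, 7.43 and 7.96 and fell 3.15-fold (adjusted p = 0.0323). Pag1, a membrane adaptor that recruits the kinase CSK, read 8.14, 8.44 and 8.30 against 9.62, 9.26 and 9.43 and fell 2.21-fold (adjusted p = 0.0338). Hip1r, a clathrin and actin adaptor, read 6.64, 6.72 and 6.81 against 8.15, 7.90 and 7.72 and fell 2.30-fold (adjusted p = 0.0324), with its 2 other probe sets at -0.43 and -0.26. C2cd2l, a lipid transfer protein of membrane contact sites, read 6.21, 6.81 and 6.63 against 7.71, 7.74 and 7.64 and fell 2.21-fold (adjusted p = 0.0422).

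The lowest-lying falls are bounds or rest on 1 probe set. Rce1, the protease that trims prenylated CAAX proteins, read 3.17, 3.35 and 2.70 against 4.71, 4.99 and 4.97, at least 1.85-fold lower with tumor-bearing mice set to 4 (adjusted p = 0.0293 on those values and 0.0323 as deposited). Setting the tumor-bearing mice to 4 removes their spread, so the 0.0293 adds no support. Rce1 met the filter only through the controls. Icmt, the methyltransferase that acts after Rce1 and a gene named after its value was seen, read 6.58 to 6.91 against 7.80 to 7.94 and fell 2.12-fold (adjusted p = 0.0323). Gpsm1, a regulator of G protein alpha subunits, and Rgs1, which speeds their inactivation, passed as deposited (adjusted p = 0.0419 and 0.0484). With values under 4 set to 4, Gpsm1 was 1.53-fold lower (adjusted p = 0.168) and Rgs1 1.63-fold lower (adjusted p = 0.0746), and neither passed. Both met the filter only through the controls. Tmprss2, a membrane serine protease, read 5.61, 4.91 and 5.11 against 7.18, 7.25 and 6.86 and fell 3.69-fold (adjusted p = 0.0338). A second Tmprss2 probe set gave a change of -0.05, so the fall rests on 1 probe set.

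The same contrast in lung asks which of these liver changes differ from those in the other organ. Over 8433 genes tested across all 12 arrays, the change in liver differed from that in lung for 131 (1.55%), being above it for 44 and below it for 87 (limma interaction, adjusted p under 0.05). Of the 131, 44 were also among the 144 liver genes. Smad7 changed by 1.68 in liver and -0.41 in lung (adjusted p of the difference = 0.0139), Myc by 1.72 and -0.19 (adjusted p = 0.0094) and Pag1 by -1.14 and 0.81 (adjusted p = 0.00408). Smad7 and Pag1 were measured above the filter in both tissues. Myc read 3.93, 4.10 and 4.19 in control liver, close to the filter value of 4. With values under 4 set to 4 its difference was 1.88 (limma adjusted p = 0.00653). Cda, Inhba and Nr0b2 also had a difference past the threshold (adjusted p = 0.000975, 0.0173 and 0.0179), but all 6 lung arrays lay under 4 for each, with group means of 2.06 to 2.54. No lung change could be measured there, so for these 3 the test restates the liver change. Of the 41 named genes with a difference past the threshold, 9 lay at or under 4 on all lung arrays and 6 on all liver arrays. With values under 4 set to 4, 38 of the 41 still passed, and Mak, Ncapg2 and Rgs1 did not (adjusted p = 0.445, 0.31 and 0.0813). Where a whole group is set to 4 its spread is removed, so passing on those values adds no support. Il1b (3.03 in liver, 3.27 in lung) and Dnajb2 (-0.85 and -0.79) were the 2 genes past the threshold in both tissues, where lung alone had 58 of 7907 genes past it (0.734%). The neutrophil gene Ltf changed by 6.35 in lung, whereas all 6 liver arrays lay at 2.06 to 2.19, where no change could be measured (adjusted p of the difference = 1.187e-05).

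**Figure D5:**
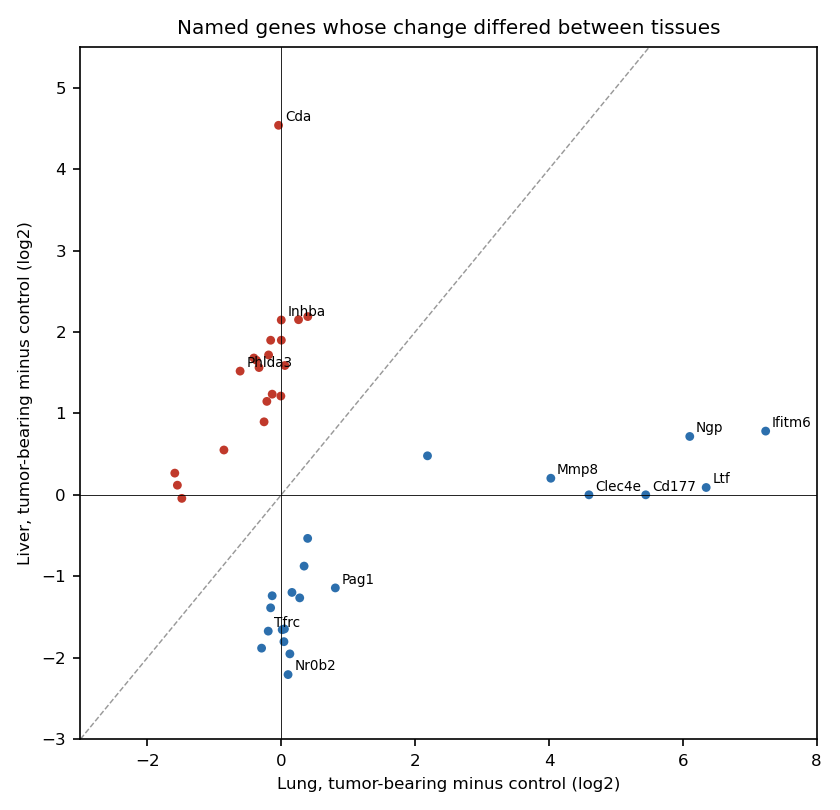
Change in liver (y axis) against change in lung (x axis), both tumor-bearing minus control on the log2 scale, for the 41 named genes whose changes differed between tissues at an adjusted p under 0.05. Red points lie above and blue points below the dashed line of equal change, and Cda lies high on the liver axis while Ltf, Ngp and Ifitm6 lie far out on the lung axis.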

How the data were processed

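RNA of 6 liver and 6 lung samples was measured on arrays. The deposited values are log2 expression levels per probe set, made by the authors with GCRMA, per the submitters' processing notes, which also name limma; their versions and settings were not stated there. GCRMA corrects background by probe sequence and normalizes between arrays, which can hide a shift of all genes. Of 22626 probe sets, 20380 had 1 gene symbol, 691 had several genes and 1555 were not listed. Each of 12393 genes was read from its brightest probe set (mean of all 12 arrays), and was tested if above 4 (log2) on at least 3 arrays of the fit. Groups were compared with limma 3.58.1 in R 4.3.3 (lmFit, eBayes, Benjamini-Hochberg adjustment, threshold 0.05), in liver on 6 arrays and between tissues as the interaction on 12. Every adjusted p is from limma. The labels do not say whether RNA was pooled or repeated, so p-values measure the spread between these samples, which may be technical, and no scan date or batch is named. The numbers in the array names run group after group, so any order effect and the group cannot be told apart.

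Genes were named by rule: the 15 largest rises and falls without overlap, for each of 51 lists the members past the threshold (at most 4) or else the 3 smallest p, for the tissue difference the 5 smallest p each way, and a fixed set. Genes outside it are said to be named after their values were seen. The lists held 1503 members, 1323 with a probe set. The members and lists were chosen with earlier results of these data known. Motifs were searched in the 250 bases before each start in the RefSeq table, on both strands. Tested on simulated data with 200 changed genes of 7712, the liver fit recovered 67.5% at a log2 change of 1 and 87.5% at 2, with 4 and 11 false calls. Alternatives covered the filter, the probe set, scaling, eBayes options, array weights, blocks and single arrays left out.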

Additional observations from a re-analysis of the deposited data

Results flagged for a closer look

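The change in liver and the change in lung differed for 41 named genes (limma interaction over 12 arrays, adjusted p under 0.05). Differences are given as the liver change minus the lung change, on the log2 scale. On all lung arrays 9 of them lay at or under 4, near background, so no lung change could be measured for Cda, Inhba, Ncapg2, Slc22a7, Nr0b2, Egln3, Car1, Rgs1 and Polr1b, and the difference there restates the liver change. With values under 4 set to 4 the difference was 3.14 for Cda (adjusted p = 0.00653) and was not past the threshold for Mak (0.19), Ncapg2 (0.50) and Rgs1 (-0.71). On those values Cda has no spread in lung or in control liver, so its p adds no support.

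Among genes with a larger change upward in liver, the difference was 4.58 for Cda, 2.15 for Inhba, 2.13 for Phlda3, a p53 target, 2.09 for Smad7, 2.06 for Niban2, 2.03 for Eepd1, 1.91 for Myc, 1.90 for Mgp, 1.89 for Dnajc12, 1.89 for Ncapg2, 1.79 for Lnx1 and 1.53 for Id2. It was 1.41 for Hmox1, heme oxygenase 1, 1.37 for the RNA sensor gene Dhx58, 1.36 for Socs2, 1.22 for Slc22a7 and 1.15 for Grpel2. For Sec14l2 it was 1.67, with a change of -1.55 in lung and 0.12 in liver, where it read above 12 on every array. For Mak (1.86) and Elf3 (1.44) the lung changes were -1.59 and -1.49, and all 6 liver arrays lay under 4, where no change could be measured.

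Among genes with a lower change in liver, the difference was -2.31 for Nr0b2, -2.08 for Egln3, -1.95 for Pag1, -1.84 for Car1, -1.69 for Rgs1, -1.67 for Lmo4, -1.59 for Tmprss2 and -1.54 for Gsk3b. It was -1.48 for Tfrc, -1.36 for Hip1r, -1.23 for Polr1b, -1.22 for Ahr, -1.10 for Map3k5 and -0.93 for Dgat1. The remaining differences were -6.46 for Ifitm6, -6.26 for Ltf, -5.45 for Cd177, -5.39 for Ngp, -4.60 for Clec4e and -3.82 for Mmp8, all genes of neutrophils or other myeloid cells. Liver changes were 0.00 to 0.78, with all 6 liver arrays at or under 4 for Cd177, Clec4e, Ltf and Mmp8. The difference was -1.71 for the iron exporter Slc40a1, which changed by 0.48 in liver and 2.19 in lung.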

How the results depend on the processing

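Calls in liver depend on the number tested, the variance model and the arrays used. Higher and lower genes numbered 26 and 36 without the filter, 76 and 157 with a filter at 5, 96 and 206 with eBayes trend, 224 and 429 with all 12 arrays in 1 fit, and 259 and 569 at an adjusted p under 0.1. Median centring gave 119 higher genes and a further quantile normalization 41 lower genes. Leaving out 1 array gave 0 to 1 higher genes and 0 to 0 lower genes, with 497 to 603 higher and 951 to 1377 lower at an unadjusted p under 0.05. With the replicate block in limma there were 0 higher and 0 lower genes, against 563 and 1228 at an unadjusted p under 0.05. Deviations of arrays with the same number correlated at -0.03, 0.12 and -0.03, and those of arrays with unlike numbers at -0.09 to 0.11. With 3 arrays per group these values cannot decide whether the numbers pair the samples. The difference between tissues was past the threshold for 70 genes with the replicate block and 328 at an adjusted p under 0.1, and for 51 to 137 without 1 array. Liver and lung arrays share the numbers in their names, and the labels do not say whether a number marks 1 mouse. With that number as a random replicate block (consensus correlation 0.04) the difference was past the threshold for 149 genes, against 131.

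The 41 named genes past the threshold in liver had 719 values under alternatives, of which 387 were past the threshold with the same direction, 332 were not past it and 0 changed direction. Of the 272 values without 1 array or with the block, 271 were not past it. Of 468 median changes of the 36 lists beyond 0.1, 3 had the opposite sign: oxidation (0.00) and the urea cycle (0.01) after median centring and the erythroid list over every probe set (0.02). Levels under 4 lie near the background of these arrays, so sizes there are bounds.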

Other observations

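Clock and glucocorticoid genes in liver had 0 of 18 and 0 of 28 past the threshold, with medians near 0 (-0.04 and -0.05). Cry1, a clock repressor, read 5.32, 7.46 and 6.68 in tumor-bearing mice against 8.77, 8.94 and 8.54 in controls (limma adjusted p = 0.0823). Bhlhe40, another clock repressor, read 11.65, 11.72 and 11.81 against 11.31, 10.96 and 11.09 (adjusted p = 0.0582). Tsc22d3 (GILZ), which glucocorticoids induce, read 11.81, 12.57 and 12.04 against 13.18, 13.30 and 13.18 (adjusted p = 0.0583). Groups were separate in all 3, which were named for their small p, and in 33.1% of all genes tested. Dbp read 13.25 to 13.55 against 13.05 to 13.11 (adjusted p = 0.149), Per1 8.39 to 8.95 against 8.40 to 8.73, and Arntl (Bmal1) 2.04 on every array.

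Energy and turnover complexes were almost level. Oxidative phosphorylation had 0 of 37 genes past the threshold with changes of -0.27 to 0.23, and the proteasome 0 of 30 with changes of -0.26 to 0.27. NRF2 targets had 0 of 27, led by Cbr1, carbonyl reductase (10.67 ± 0.13 against 11.43 ± 0.23, SD, n = 3 each, adjusted p = 0.0581). CDK inhibitors and p53 targets had 0 of 17, led by Phlda3 (5.94 ± 0.25 against 4.42 ± 0.51, adjusted p = 0.0583). Chemokines and their receptors had 0 of 14, with Cxcl1, a chemokine that recruits neutrophils, at 12.21, 13.24 and 11.45 against 10.21, 11.26 and 10.77 (adjusted p = 0.136). Toll-like receptor, NF-kappa-B, MHC class I, MHC class II, bile duct and platelet lists also had 0 genes past the threshold, with medians of 0.25, 0.12, 0.21, 0.56, 0.04 and -0.06.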
